A study of Bos grunniens and Bos grunniens x Bos taurus with 6 samples.

Results

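Genes whose symbol starts with NDUF code for the nuclear subunits of respiratory complex I, for several of its assembly factors, and for NDUFA4 and its relative NDUFA4L2. They were compared in longissimus dorsi, a large back muscle, between yak (3 samples) and cattle-yak (3 samples), the offspring of crosses between cattle and yak. Members were all upper-case symbols starting with NDUF, each represented by its gene identifier with the most pooled reads and by all transcripts of that identifier. The rule found 45 of the 31044 genes in the table, with 1100 of its 179856 transcripts, and all 45 had at least 30 pooled reads. The labels give no treatment, age, sex or rearing for either group, and both groups carry the same tissue label. Whether samples of one label came from different animals is not stated, so the p-values reflect spread among these samples only, part of which may be technical. Full-length cDNA was amplified by PCR and read on nanopores, and the libraries held 2350851 to 2502603 counted reads in yak and 2366057 to 2769106 in cattle-yak.

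Complex I is the entry point of the mitochondrial respiratory chain: it takes electrons from NADH, hands them to ubiquinone and pumps protons across the inner membrane. It is shaped like an L. A matrix arm holds the N module, which oxidises NADH, and the Q module, which reduces ubiquinone, while a membrane arm holds the proximal and distal pump modules. Core subunits carry out the chemistry and the pumping, accessory subunits surround and stabilise them, and assembly factors build the complex without staying in it. Some core subunits of the pump are encoded in mitochondrial DNA, and skeletal muscle depends on complex I for oxidative ATP production.

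Levels are given as CPM, a library's counts scaled to a fixed total, after TMM scaling, which corrects for differences in library composition. A log2 fold change is cattle-yak against yak, so a negative value is a lower level in cattle-yak. A gene is said to have risen or fallen where its adjusted p in edgeR's quasi-likelihood test, over all 7504 genes that passed the low count filter, was under 0.05. In bulk muscle, fewer cells of a type and less RNA per cell cannot be told apart.

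Of the 45 genes, 44 passed the filter, and 3 of them fell in cattle-yak: NDUFS1, NDUFA10 and NDUFB1, which lie in the N, proximal pump and distal pump modules. None rose, 41 did not pass the test, and 13 had an unadjusted p under 0.05, a share to read against 27.9% of all genes tested. Over all genes tested, 12.6% passed in either direction and 6.18% fell. The sign was more uniform than the calls: 40 of the 44 log2 fold changes were negative, with a median of -0.26 and a range of -1.13 to 0.49, while 48.1% of all genes tested were negative and their median was 0.02. In 12 members the 3 cattle-yak libraries all lay below the 3 yak libraries, against 16.1% of all genes, and in 0 members did they all lie above, against 16.9%. With library size alone in place of TMM scaling, the median of all genes moved to 0.18, that of the members to -0.11, and 30 members stayed negative. With only transcripts that carry a reference identifier, 28 members could be tested, 12 were negative, and their median was 0.012 against 0.015 for all genes tested that way. The filter and TMM scaling were then computed anew, over 1643 genes.

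**Figure D1:**
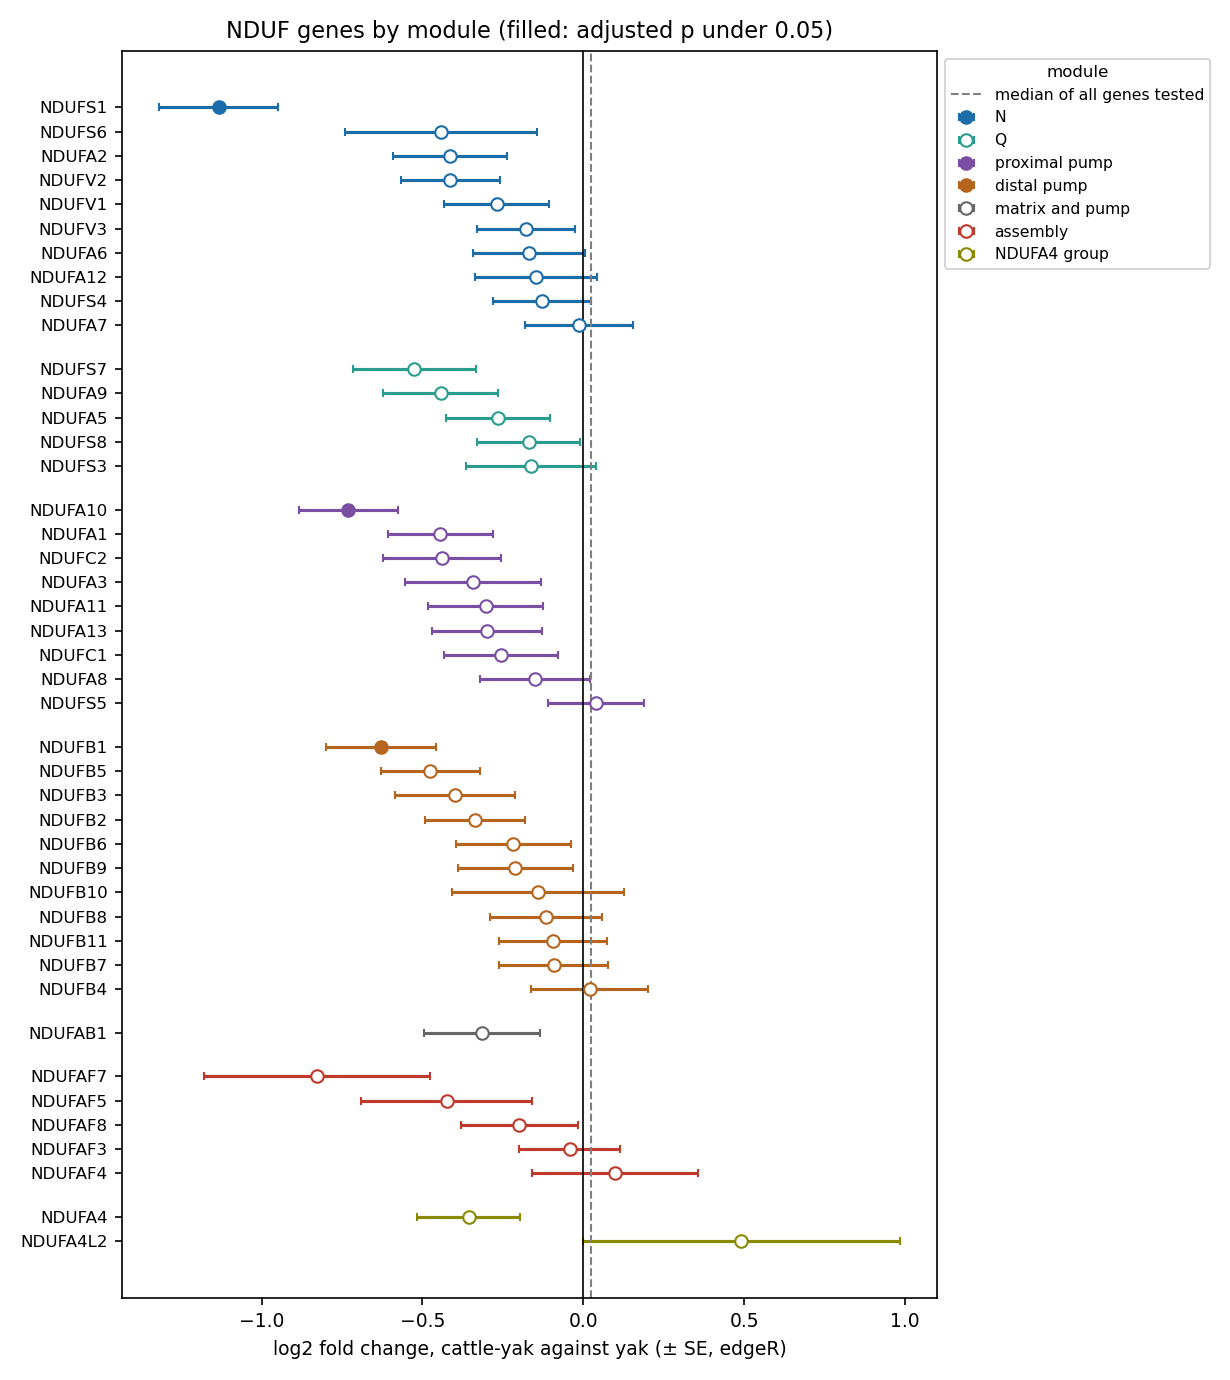
Log2 fold change of the NDUF genes tested and reported, cattle-yak against yak, with its SE from edgeR, ordered within each module of complex I; filled points had an adjusted p under 0.05 and the dashed line is the median of all genes tested (0.02). All points but 4 lie to the left of 0, with NDUFS1 at -1.13 farthest from it and NDUFA4L2 at 0.49 on the other side.

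The N module had 10 members tested, all with negative values (median -0.22), and 1 of them fell. NDUFS1, gene ENSBGRG00000009516, codes for the largest subunit of the complex, a core protein whose iron-sulphur clusters pass electrons along the matrix arm. Its level was 328, 413 and 441 CPM in the yak libraries and 212, 144 and 182 CPM in the cattle-yak libraries. The highest cattle-yak library lay well below the lowest yak library. The means were 394 ± 58.7 CPM in yak against 179 ± 33.9 CPM in cattle-yak (SD, n = 3 each), and the gene fell by 1.13 ± 0.18 on the log2 scale (SE, edgeR adjusted p = 0.00157). This call was kept in the 16 alternative analyses that tested the gene. All reads of NDUFS1 came from assembled transcripts, so it was not tested where only transcripts with a reference identifier were counted.

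NDUFV2, a core subunit with an iron-sulphur cluster, was at 608, 579 and 669 CPM in yak and 509, 419 and 465 CPM in cattle-yak. Its groups did not overlap, but its log2 fold change of -0.41 ± 0.15 did not pass the test (edgeR adjusted p = 0.0960). NDUFV1, the core subunit that binds flavin and oxidises NADH, had a log2 fold change of -0.27, with groups that overlapped. The accessory subunit NDUFA12 was at 348, 553 and 416 CPM in yak and 416, 337 and 436 CPM in cattle-yak, and the groups overlapped over most of their range. Its log2 fold change stood at -0.15 ± 0.19 (edgeR adjusted p = 0.657). NDUFA2, an accessory subunit at the tip of the matrix arm, had groups that did not overlap and a difference of -0.42 on the log2 scale (edgeR adjusted p = 0.144). It passed the test only without cattle-yak library 3, where it was -0.62 (edgeR adjusted p = 0.0357). The other accessory members of the module, NDUFS4, NDUFS6, NDUFV3, NDUFA6 and NDUFA7, lay between -0.44 and -0.01.

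Among the 6 members of the Q module none passed the test, and all 6 values were below 0 (median -0.22). NDUFS7 carries the last iron-sulphur cluster before ubiquinone. It was at 843, 1251 and 1209 CPM in yak and 751, 646 and 898 CPM in cattle-yak. Yak library 1 lay inside the cattle-yak range and the other 2 yak libraries above it. The log2 fold change of -0.52 ± 0.19 did not pass (edgeR adjusted p = 0.0871). It passed without yak library 1 (-0.70, edgeR adjusted p = 0.0434) and without the low count filter (-0.64, edgeR adjusted p = 0.0154). NDUFS8, another iron-sulphur core subunit, was at 593, 689.6 and 678 CPM in yak and 597, 498 and 648 CPM in cattle-yak. Its groups overlapped and its log2 fold change stood at -0.17 ± 0.16 (edgeR adjusted p = 0.531). The core subunit NDUFS3 and the accessory subunits NDUFA5 and NDUFA9, the last at the junction of the arms, lay between -0.44 and -0.16.

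The proximal pump module, next to the matrix arm, had 9 members tested and a median of -0.30. NDUFA10, gene ENSBGRG00000022816, is an accessory subunit with a nucleoside kinase fold on the matrix side of the membrane arm. Its level was 166, 154 and 172 CPM in yak and 96.6, 97.6 and 102 CPM in cattle-yak, with little spread inside either group and a wide gap between them. It fell by 0.73 ± 0.15 on the log2 scale (edgeR adjusted p = 0.00756), from 164 ± 8.95 to 98.9 ± 3.13 CPM (SD, n = 3 each), and this call was kept in all 17 alternative analyses. NDUFA8, a disulphide-bonded accessory subunit facing the intermembrane space, was at 586, 749.9 and 709 CPM in yak and 709, 516 and 619 CPM in cattle-yak. Its groups overlapped over most of their range and its log2 fold change stood at -0.15 ± 0.17 (edgeR adjusted p = 0.611). The other members ran from -0.45 for NDUFA1 to 0.04 for NDUFS5, the 1 member of the module with a positive value.

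NDUFC2, gene ENSBGRG00000020103, is a small accessory subunit of the membrane arm. At the level of the whole gene it was at 456, 437 and 437 CPM in yak and 255, 306 and 418 CPM in cattle-yak. The yak libraries were nearly equal, while cattle-yak library 3 came close to them and the other 2 lay lower. The log2 fold change of -0.44 ± 0.18 did not pass (edgeR adjusted p = 0.137), and it passed without cattle-yak library 3 (-0.67, edgeR adjusted p = 0.0250). Its transcripts are described further on.

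In the distal pump module, at the far end of the membrane arm, 1 of 11 members fell and the median was -0.21. NDUFB1, gene ENSBGRG00000019621, codes for a small accessory subunit that crosses the membrane. It was at 162, 157 and 118 CPM in yak and 90.6, 96.0 and 95.8 CPM in cattle-yak, where yak library 3 stood nearest to the cattle-yak libraries without reaching them. It fell by 0.63 ± 0.17 on the log2 scale (edgeR adjusted p = 0.0283). The call did not hold with library size alone (edgeR adjusted p = 0.0860), with reference transcripts only (0.155), or without yak library 1 (0.0917) or 2 (0.0882) or cattle-yak library 1 (0.0605), 2 (0.0542) or 3 (0.0587).

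NDUFB9, an accessory subunit of the LYR protein family, was at 490.2, 715 and 681 CPM in yak and 550.2, 473 and 606 CPM in cattle-yak, and NDUFB11 at 336, 480.4 and 441 CPM and at 409, 363 and 406 CPM. In both genes yak library 1 lay within or below the cattle-yak range. Their log2 fold changes were -0.21 ± 0.18 and -0.09 ± 0.17, and neither passed (edgeR adjusted p = 0.483 and 0.765). NDUFB5, NDUFB2 and NDUFB3 had groups that did not overlap, with log2 fold changes of -0.48, -0.34 and -0.40. NDUFB5 came nearest to the threshold (edgeR adjusted p = 0.0598), and it passed with DESeq2 (adjusted p = 0.0468) and without the low count filter (edgeR adjusted p = 0.0408). The 5 remaining members, NDUFB4, NDUFB6, NDUFB7, NDUFB8 and NDUFB10, lay between -0.22 and 0.02.

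NDUFAB1, the mitochondrial acyl carrier protein, sits in both the matrix arm and the pump and also serves fatty acid synthesis. It was at 338, 282 and 411 CPM in yak and 291, 232 and 305 CPM in cattle-yak, with overlapping groups (log2 fold change -0.31 ± 0.18, edgeR adjusted p = 0.283). Across the whole complex, the 7 nuclear core subunits had a median of -0.27 and the 30 accessory subunits one of -0.26, with 1 and 2 genes fallen.

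**Figure D2:**
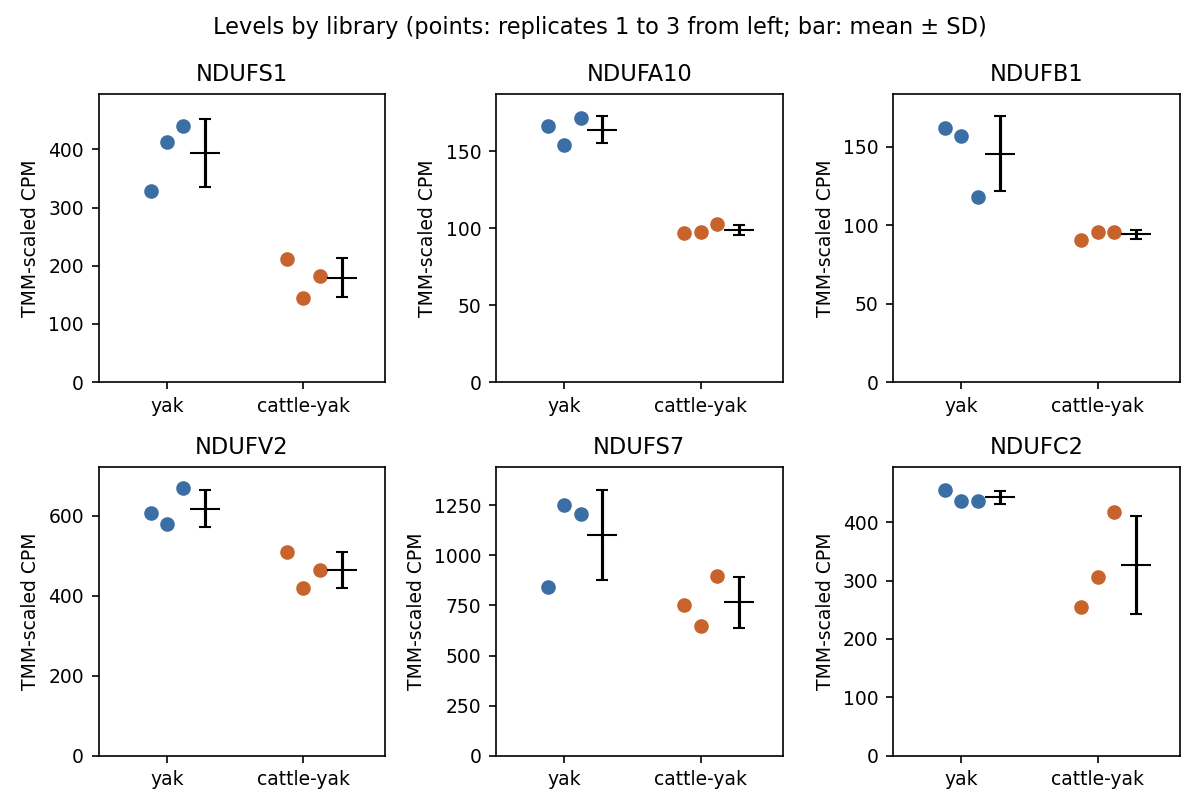
TMM-scaled CPM of 6 subunit genes in each library, as points, with the mean and SD of 3 libraries beside each group; every vertical axis starts at 0. In NDUFS1, NDUFA10, NDUFB1, NDUFV2 and NDUFC2 all yak points lie above all cattle-yak points, and in NDUFS7 yak library 1 (843) lies below cattle-yak library 3 (898).

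Summed over the module, the N module stood at 3397 ± 221 CPM in yak against 2709 ± 266 CPM in cattle-yak (SD, n = 3 each), without overlap. The Q module stood at 3597 ± 455 and 2884 ± 416 CPM, the proximal pump at 2812 ± 219 and 2331 ± 264 CPM, and the distal pump at 3435 ± 378 and 2963 ± 345 CPM. The groups overlapped in each of these 3 modules. All NDUF members together took 1.41%, 1.59% and 1.54% of counted reads in the yak libraries and 1.42%, 1.25% and 1.44% in the cattle-yak libraries. The group ranges overlapped, and the means differed by -0.141 percentage points, or by -0.0821 without cattle-yak library 2.

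**Figure D3:**
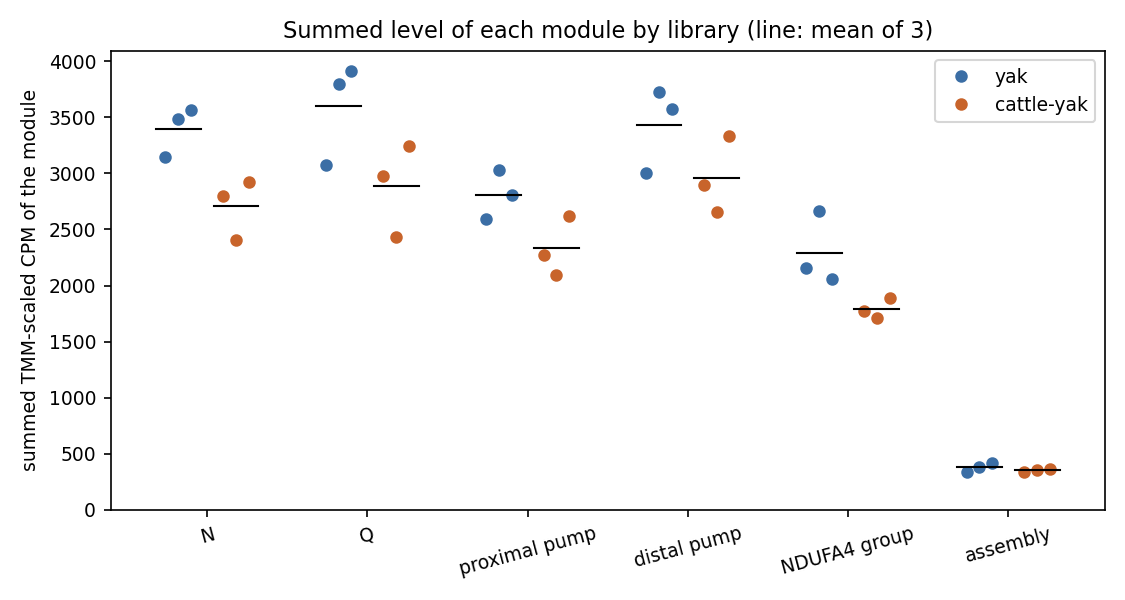
Summed TMM-scaled CPM of the members of each module in each library, with a line at the mean of 3 libraries. The N module and the NDUFA4 group have no overlap between yak and cattle-yak, and cattle-yak library 2 is the lowest library in the N, Q, proximal pump and distal pump modules.

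The libraries did not contribute evenly to these differences. Cattle-yak library 2 was the lowest library for 27 of the 44 genes (61.4%), against 20.2% of all genes tested. Yak library 2 was the highest for 23 (52.3%), against 17.5% of all genes. Without cattle-yak library 2 the median of the members was -0.17, and without cattle-yak library 3 it was -0.39.

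Of the assembly factors, 5 of the 6 present passed the filter, and none passed the test (median -0.20). NDUFAF7, a mitochondrial methyltransferase that acts during assembly, was at 7.10, 13.5 and 10.4 CPM in yak and 6.73, 4.42 and 6.24 CPM in cattle-yak. The groups came close without overlapping in CPM, on 11 to 31 reads a library, and the log2 fold change stood at -0.83 ± 0.35 (edgeR adjusted p = 0.143). In reads they overlapped, with 16 in yak library 1 and 17 in cattle-yak libraries 1 and 3, so the separation rests on scaling. NDUFAF3, which acts with NDUFAF4 on an early intermediate of the Q module, was at 220.0, 234 and 275 CPM in yak and 228, 255 and 226 CPM in cattle-yak. These ranges coincided for the most part, and the log2 fold change stood at -0.04 ± 0.16 (edgeR adjusted p = 0.894). NDUFAF8, the partner of the NDUFS7 hydroxylase NDUFAF5, was at 72.3, 90.8 and 75.7 CPM in yak and 59.0, 67.9 and 81.1 CPM in cattle-yak, again with overlap (-0.20 ± 0.18, edgeR adjusted p = 0.520). NDUFAF4 was at 0.10. NDUFAF6, the member that did not pass the filter, had 3 to 11 reads a library. NDUFAF1 and NDUFAF2 are not analysed here.

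NDUFA4 carries a complex I name but is now counted as a subunit of complex IV, cytochrome c oxidase. It was at 2155, 2662 and 2051 CPM in yak and 1768, 1710 and 1889 CPM in cattle-yak, with no overlap, yet the log2 fold change of -0.36 ± 0.16 did not pass (edgeR adjusted p = 0.165). Its relative NDUFA4L2, a hypoxia-inducible protein known to restrain complex I, rested on few reads. It had 7, 3 and 11 reads in yak and 9, 13 and 12 reads in cattle-yak, with a difference of 0.49 ± 0.49 on the log2 scale (edgeR adjusted p = 0.558).

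Long reads allow each transcript to be counted by itself. Of the 1100 transcripts of the members, 169 passed the filter, 15 fell and 2 rose, in the 7 genes NDUFA10, NDUFA5, NDUFB1, NDUFB9, NDUFC2, NDUFS1 and NDUFS7. Among all 15805 transcripts tested 8.86% fell and 9.63% rose. Transcript CPM were scaled separately from gene CPM, so reads and shares are given here.

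The reads of NDUFC2 fell on different transcripts in the groups. The reference transcript ENSBGRT00000037102, described in the table as the C2 subunit of Bos mutus, the wild yak, held 97.0%, 92.9% and 94.2% of the gene's reads in yak. In cattle-yak it held 37.1%, 51.9% and 55.0%. No yak library came near a cattle-yak library, and the spread was wider in cattle-yak (48.0% ± 9.58) than in yak (94.7% ± 2.08; SD, n = 3 each). The difference was -46.7 percentage points, with a two-sided exact permutation p of 0.1, the smallest that 3 against 3 samples can give. It ran from -50.2 to -41.3 points when each library was left out in turn. The shift was already known from these data. Neither this p nor those given below for NDUFC2 and its transcripts are independent support.

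The assembled transcript TALONT000927638 took up nearly the same share. It had 6, 8 and 6 reads in yak and 360, 344 and 481 reads in cattle-yak, and it held 0.668% ± 0.116 of the gene's reads in yak against 47.7% ± 7.16 in cattle-yak (SD, n = 3 each). It was thus rare in every yak library, while in cattle-yak it lay above the reference transcript in library 1 (239 reads) and below it in libraries 2 and 3 (396 and 626 reads). It rose by 5.68 on the log2 scale (edgeR adjusted p = 6.81e-08), while the reference transcript fell by 1.36 (edgeR adjusted p = 0.00582). The table describes it as a hypothetical protein of Muntiacus muntjak, a deer, and lists NADH dehydrogenase activity and RNA-directed DNA polymerase activity among its functions. Both transcripts together held 95.4% ± 1.99 of the gene's reads in yak and 95.7% ± 2.44 in cattle-yak. The next transcript, TALONT000927825, had 1, 46 and 33 reads in yak and 28, 1 and 2 reads in cattle-yak, so that single libraries set its share (2.70% ± 2.33 and 1.55% ± 2.42). The remaining transcripts of the 18 held few reads. Of them, 4 had no yak read and 30 cattle-yak reads in all, and 3 had no cattle-yak read.

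**Figure D4:**
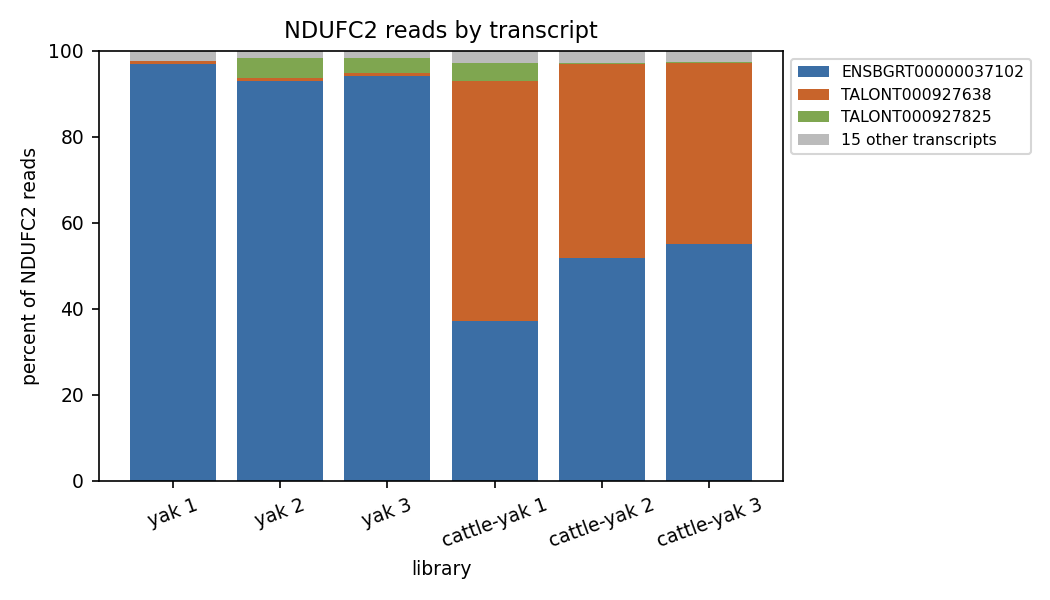
Share of NDUFC2 reads held by each of its 3 most abundant transcripts and by the other 15 together, in percent of the gene's reads, for each library. The reference transcript takes 92.9% to 97.0% in the yak libraries and 37.1% to 55.0% in the cattle-yak libraries, where TALONT000927638 takes 42.2% to 55.8%.

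The share of a gene's transcripts was also tested over the whole table with edgeR's diffSpliceDGE, in genes with at least 2 transcripts holding 5% or more of their reads. Of 22 members tested, only NDUFC2 passed (edgeR adjusted p = 1.72e-08), where 8.62% of all 1821 genes tested did. The next smallest value was that of NDUFS1 (edgeR adjusted p = 0.0867), which passed without cattle-yak library 3. Without a minimum share NDUFA5, NDUFA9 and NDUFB9 passed as well. Counting choices matter for NDUFC2, because the reference transcript carries no symbol in the table. Counting only rows that carry the symbol left the assembled transcripts and gave the gene a value of 2.89 (edgeR adjusted p = 2.82e-05), and counting only reference transcripts gave -1.16 (edgeR adjusted p = 0.0221). A separate identifier with the same symbol, TALONG000102395, had 1, 2 and 4 reads in yak and 9, 10 and 5 reads in cattle-yak. Rows with the symbol held 25.8% of the reads of NDUFC2. In NDUFA1, NDUFA4, NDUFA11, NDUFB4, NDUFB6, NDUFB8 and NDUFV3 such rows held 0.92% to 19.5%.

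In the RefSeq gene order of the yak assembly Bosgru_T2T1.0, NDUFC2 lies between THRSP and ALG8, with AAMDC among its near neighbours. An assembled AAMDC transcript, TALONT000926808, had 0 reads in each yak library and 63, 69 and 78 reads in the cattle-yak libraries. There it held 29.7% ± 1.24 of that gene's reads (SD, n = 3). AAMDC was picked with earlier results of these data known. Transcripts of the other neighbours are not given here, and whether the region as a whole differs was not tested.

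NDUFS1 was split over 113 transcripts, none with a reference identifier, and 10 were tested. All 10 had negative values and 7 fell. The most abundant, TALONT000952932, had 189, 201 and 221 reads in yak and 152, 109 and 98 reads in cattle-yak. Each cattle-yak library lay below each yak library, and the transcript fell by 0.94 ± 0.22 on the log2 scale (SE, edgeR). TALONT000947448 had 125, 168 and 203 reads in yak and 60, 39 and 86 reads in cattle-yak, a wider gap, and fell by 1.61 ± 0.27. The 5 tested transcripts described as the Bos mutus subunit fell by 1.31 to 1.91, and the 4 described as a Muntiacus muntjak hypothetical protein had values of -1.31 to -0.69, of which 2 passed. The remaining tested transcript, TALONT000956599, has no description and was at -0.17 ± 0.31. The reduction in NDUFS1 reads was thus spread over several transcripts, and no transcript of the gene moved its mean share by more than 5.34 percentage points.

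**Figure D5:**
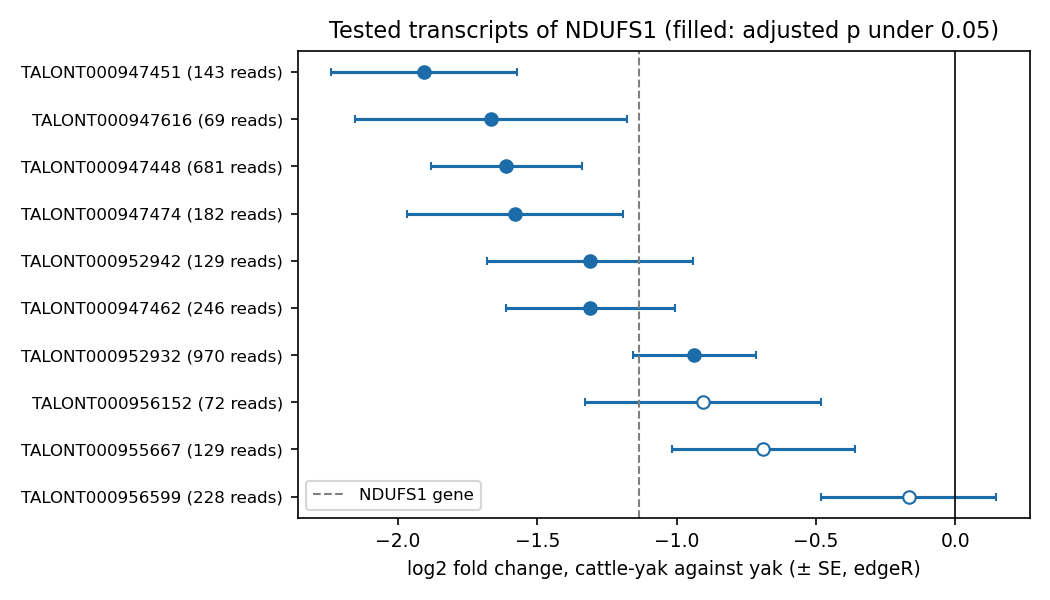
Log2 fold change, cattle-yak against yak, with its SE from edgeR, for the 10 tested transcripts of NDUFS1, with pooled reads in brackets; filled points had an adjusted p under 0.05 and the dashed line is the gene as a whole (-1.13). All points lie below 0, from -1.91 to -0.17.

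NDUFS7 had 3 fallen transcripts among 12 tested, although the gene as a whole did not pass. The largest of them, TALONT001220796, went from 3.65% ± 0.361 of the gene's reads in yak to 1.47% ± 0.306 in cattle-yak (SD, n = 3 each). In NDUFB9 the assembled transcript TALONT000053078 had 2, 3 and 2 reads in yak and 16, 16 and 43 reads in cattle-yak and rose by 3.16 (edgeR adjusted p = 0.00147), while TALONT000053049 fell by 0.63. For NDUFA10 and NDUFB1 the fallen transcript was the reference one, ENSBGRT00000042140 and ENSBGRT00000036045, which held 81.4% ± 1.78 and 95.8% ± 1.21 of the gene's reads in yak. The transcripts ENSBGRT00000036045 of NDUFB1, TALONT000053049 of NDUFB9 and TALONT001220830 of NDUFS7 lost their call under some alternatives. The first lost it without any 1 library other than yak library 3, the next without any 1 library, and the last without yak library 2 or 3 or cattle-yak library 1 or 2. Without cattle-yak library 2 their edgeR adjusted p was 0.0858, 0.102 and 0.0975. With all libraries, ENSBGRT00000036045 also lost it with DESeq2 (adjusted p = 0.0746), library size alone (edgeR adjusted p = 0.114), no low count filter (0.0731) and the replicate block (0.0665). TALONT000053049 lost it under the same 4 settings (0.183, 0.137, 0.181 and 0.0677), and TALONT001220830 with DESeq2 (0.102) and library size alone (0.0557).

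Transcripts were also grouped by the species of the protein that describes them, which does not tell which parent an allele came from. In cattle-yak, 8.26% ± 0.544 of the members' reads lay in transcripts described by a Bos mutus protein, against 10.7% ± 0.342 in yak (SD, n = 3 each), without overlap. Over all transcripts those shares were 9.70% ± 0.345 and 9.67% ± 0.203. The share of NDUFC2 alone went from 96.4% ± 2.55 in yak to 49.5% ± 9.53 in cattle-yak, and without NDUFC2 the members were at 8.32% ± 0.371 and 7.20% ± 0.308, still without overlap. For Bos taurus, domestic cattle, the members' shares overlapped, at 38.3% ± 2.17 in yak against 39.4% ± 1.43 in cattle-yak, while over all transcripts they were 13.2% ± 0.497 and 12.1% ± 0.459, lower in cattle-yak without overlap. The 28 members that could be tested on reference transcripts alone had a median of -0.19 with all transcripts and of 0.012 with those alone. In that fit the low count filter and TMM scaling were computed anew, over 1643 genes. NDUFA12 and NDUFAF3, with 95.0% and 84.8% of their reads on reference transcripts, went from -0.15 to 0.069 and from -0.04 to 0.17. NDUFC2, with 74.2%, went the other way, from -0.44 to -1.16. Neither the part of read assignment nor that of scaling in the values of this paragraph was tested.

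Partners of these genes were read from fixed lists. Of the other complex I assembly factors, 9 were tested, none passed and 8 were negative (median -0.36). COA1 (-0.37), TMEM126A (-0.37) and ECSIT (-0.21) were among them. Of the subunits encoded in mitochondrial DNA, 5 were tested and none passed (median -0.11). MT-ND4 was at -0.11 and MT-ND2 at 0.28, with overlapping groups, and cattle-yak library 2, the lowest for most nuclear members, was the highest for both. MT-ND5, named after its values were seen, had 119, 292 and 238 reads in the yak libraries and 104, 142 and 128 in those of cattle-yak (log2 fold change -0.99, edgeR adjusted p = 0.0506), and it passed in 6 of 16 alternative analyses. These were DESeq2 (adjusted p = 0.0121), RLE scaling (edgeR adjusted p = 0.0475), no low count filter (2.92e-05), no robust dispersion (0.0406), the replicate block (0.0132) and the fit without yak library 1 (-1.30, 0.00275).

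Of the nuclear subunits of complexes II to V, without NDUFA4, 42 were tested, 5 fell, none rose and 36 were negative (median -0.30), beside 6.18% fallen and 48.1% negative among all genes tested. SDHC, a membrane anchor of complex II, fell by 0.90 and UQCRC2, a core protein of complex III, fell by 0.75, and ATP5MC2, a gene for the c subunit of ATP synthase, fell by 1.09.

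Markers of skeletal muscle were present at high levels in every library: 10 of 12 listed genes were matched, and their summed level was 262017 to 296776 CPM in yak and 207347 to 235165 CPM in cattle-yak, lower without overlap. Of these, 3 fell and 2 rose, where 12.6% of all genes tested passed. ACTA1, skeletal muscle actin and the largest part of the sum, fell from 103037, 128626 and 114873 CPM in yak to 63118, 74413 and 82725 CPM in cattle-yak. MYH2, a fast myosin heavy chain, and MB, myoglobin, fell by 0.66 and 0.92 on the log2 scale, TTN (titin) and DES (desmin) rose by 0.64 and 0.70, and the other 5 did not pass. The fibroblast list (8 of 8 matched) summed to 477 to 590 CPM in yak and 250 to 461 CPM in cattle-yak. The adipocyte list (3 of 6) summed to 137 to 181 and 73.5 to 123, and the erythroid list (2 of 6) to 2.70 to 25.3 and 0.367 to 2.37. Each sum was lower without overlap. Of 7 fibroblast genes tested 3 fell, COL1A2 (-1.17), COL3A1 (-1.275) and LUM (-1.46), beside 6.18% of all genes. DCN, the largest part of that sum, did not pass (0.06). Yak library 3 and cattle-yak library 1 each had 5 HBA reads and 1 HBB read, so their erythroid sums differ by scaling alone. Endothelial (8 of 8), macrophage (8 of 8) and smooth muscle (5 of 6) sums overlapped, and no heart marker was matched. Of 4 endothelial and 3 macrophage genes tested none passed and 0 were negative, with C1QA at 1.38 and C1QB at 1.46. VWF of endothelium, not tested, had 3, 3 and 0 reads in yak and 9, 26 and 18 reads in cattle-yak. CD163 of macrophages, not tested, had 1, 0 and 3 reads in yak and 7, 25 and 27 reads in cattle-yak. MRC1, also not tested, was higher in cattle-yak without overlap. LPL, the largest part of the adipocyte sum, did not pass (-0.74, edgeR adjusted p = 0.0668). FABP4 of the same list had 30, 36 and 41 reads in yak and 5, 44 and 10 reads in cattle-yak, with overlap. CIDEC, not tested, had 2, 2 and 6 reads in yak and 0, 0 and 2 reads in cattle-yak. PDGFRA of fibroblasts had 0 reads in yak library 1, and the globin gene HBA had 0 in cattle-yak library 3. The part of cell composition in the values of the NDUF genes was not tested.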

How the data were processed

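Total RNA of 6 longissimus dorsi samples was made into nanopore cDNA-PCR libraries, per the labels' protocols. Per the submitters' processing notes, fastp, minimap2 and GSNAP were used, and how reads were counted, and on which build, is not given in the sources used here. As deposited, the table holds whole-number counts of reads per transcript and CPM, which the authors made by dividing counts by the library total (largest deviation 0.005). Left out were 132 lines without values. The 61 transcripts with no gene identifier, which took up to 0.0025% of a library, were left out of the gene sums and the usage test only.

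Transcript counts were summed by gene identifier and tested over the whole table with edgeR 4.0.16 under R 4.3.3 (low counts removed by filterByExpr, TMM, robust quasi-likelihood test, Benjamini-Hochberg threshold 0.05). Usage was tested with diffSpliceDGE on transcripts with at least 5% of their gene's counts. Alternatives were DESeq2 1.42.0, limma-voom (limma 3.58.1), other scalings, filters and ways of summing rows, a block for the replicate number, and fits that omit 1 library. The tests were also run on simulated counts with a common dispersion, unlike that of the data, and the outcome is not given here. Figures were drawn with matplotlib 3.10.9 from tables made with pandas 2.3.3 in Python 3.11.15.

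Members, modules and lists were chosen with earlier results of these data known, so the NDUFC2 shift, already part of those, is no independent support. Library values are given for called members, NDUFC2, the 2 most abundant members and the largest change of each module, and members over 0.5 in size without overlap. Other members and genes of the lists are named where a count or range turns on them, after their values were seen. Of the 45 symbols, 43 are in the RefSeq gene table of the yak, which served only for gene order. For 1 member, kept in all counts and medians, values are not reported here. Gene copies and overlaps may exchange reads. Reads amplified by PCR and lacking molecular identifiers are not independent molecules.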

Additional observations from a re-analysis of the deposited data

How the results depend on the processing

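The count of 3 called genes became 5 without the low count filter and ran from 2 to 4 when each library was left out. NDUFS1 and NDUFA10 kept their calls in every analysis that tested them, and NDUFB1 did not. The count of 17 called transcripts became 11 with DESeq2 and 11 with a mean of at least 10 CPM, and ran from 10 to 19 across fits without 1 library (10 without yak library 2, 11 without cattle-yak library 2). Genes with changed usage numbered 4 without a minimum share (NDUFA5, NDUFA9, NDUFB9 and NDUFC2) and 1 to 2 across fits without 1 library, NDUFS1 joining NDUFC2 without cattle-yak library 3. The summed share of the members differed by -0.340 points when the 10 most abundant genes were left out of the total, and by -0.194 to -0.0821 points without 1 library. The NDUFC2 share over rows with its symbol gives no value, since the main transcript has none. Libraries with the same replicate number did not deviate together (correlations of -0.038, -0.016 and 0.017), and with the number as a replicate block 3 genes, 13 transcripts and 1 usage change were called.

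Of 755 alternative values of the genes and transcripts given with a value of their own, 688 kept sign and call, 13 gained a call, 32 lost one and 22 changed sign. Only the reversal of NDUFC2 to 2.89 with rows that carry the symbol passed the test. For the members given only within a range, 27 of 284 alternative values changed sign and 0 passed the test, the highest being 0.82 for NDUFS3 and 0.65 for NDUFB4. With library size alone NDUFA12 was at 0.013, NDUFA8 at 0.012, NDUFAF3 at 0.12, NDUFB11 at 0.069 and MT-ND4 at 0.048. With reference transcripts only NDUFA12 was at 0.069, NDUFA8 at 0.026, NDUFAF3 at 0.17, NDUFAF8 at 0.20 and NDUFB9 at 0.0087. NDUFS5 was at -0.022 with DESeq2 and -0.078 without the low count filter, where NDUFAF4 was at -0.012. Across fits without 1 library NDUFA12 ran from -0.31 to 0.033, NDUFAF3 from -0.13 to 0.036, NDUFAF4 from -0.063 to 0.29, NDUFS5 from -0.043 to 0.089 and MT-ND4 from -0.36 to 0.0077. The cause of these changes was not tested. At 2350851 to 2769106 reads a library, members such as NDUFAF6, NDUFAF7 and NDUFA4L2 rest on few reads.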

Other observations

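NDUFS6, a zinc-binding accessory subunit of the N module, was at 183, 95.6 and 214 CPM in yak and 138, 85.6 and 139 CPM in cattle-yak, so library 2 was the lowest of each group. NDUFB10, a membrane arm subunit, had the same shape, at 272, 148 and 240 CPM in yak and 191, 141 and 266 CPM in cattle-yak. UQCRFS1, the iron-sulphur protein of complex III, was lowest in the same libraries, with 3120, 1225 and 2437 reads in yak and 1608, 575 and 1994 reads in cattle-yak. These genes were picked after their values were seen, and over all genes the libraries numbered 2 did not deviate together (correlation -0.016 across 7504 genes).

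NDUFA3 had a second identifier, ENSBGRG00000020087, with 34, 36 and 78 reads in yak and 27, 6 and 101 reads in cattle-yak. Its lowest and highest libraries both belonged to cattle-yak.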
